A study of Mus musculus with 20 samples.

Results

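Expression of 10 genes of the integrated stress response was followed in mouse liver, in total RNA and in RNA recovered from polysomes. The set comprised Atf4, Atf5, Ddit3, Ppp1r15a, Ppp1r15b, Chac1, Trib3, Asns, Ifrd1 and Cebpa, chosen by symbol because their mRNAs carry described upstream open reading frames (uORFs) or because they are targets of Atf4. Each symbol was matched to its Ensembl identifier, and all 10 were found among the 53028 genes of the table. All 10 also passed the filter on low counts in every comparison.

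In the integrated stress response, kinases that sense viral RNA, amino acid shortage, unfolded protein in the endoplasmic reticulum or lack of heme phosphorylate the initiation factor eIF2. Less active eIF2 lowers initiation on most mRNAs, while on Atf4, Atf5, Ddit3, Ppp1r15a and Ppp1r15b it lets more ribosomes pass the uORFs and reach the main coding sequence. Atf4 protein then raises transcription of genes for amino acid supply and stress adaptation, and the Ppp1r15 proteins guide a phosphatase to eIF2 to end the response. RNA on polysomes is a measure of ribosome loading, but it does not tell which reading frame of an mRNA the ribosomes occupied.

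All 10 mice were male C57BL/6J animals on chow diet. Each received an LNA, an antisense oligonucleotide stabilized by locked nucleic acids, by intraperitoneal injection, with 3 doses of 3 mg/kg set at intervals of 2 days, and liver was taken 2 days after the last dose. The LNA was directed against GFP as control in mice 1, 2, 3, 8 and 9 and against SNORA73, a small nucleolar RNA, in mice 4, 6, 10, 11 and 12. The design text gives an age of 8 weeks at injection, whereas the study's polysome methods give an older age, and the sample labels write the second LNA as Snora37kd. Each animal gave 1 library of total RNA (input) and 1 of polysome RNA, both polyA-selected, and cycloheximide was given before harvest to hold ribosomes on mRNA. Whole liver was used, so the values do not separate cell types.

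The total RNA libraries held 20005571 to 42023572 counts each, and the polysome libraries 14853056 to 33824824. The snoRNAs themselves could not be read as a check of the labels, since polyA selection leaves them out and no library held more than 2 counts of Snora73a or 4 of Snora73b. Hepatocyte markers (6 of 6 with counts) summed to between 35200 and 68100 CPM (counts scaled to a common library size), while lymphocyte markers summed to at most 2.85 CPM. The summed level of 5 liver endothelial markers, none of them without counts, was 72 to 83.4 CPM in polysome RNA with GFP LNA and 85.3 to 98.9 CPM with SNORA73 LNA. These ranges did not overlap, whereas those of total RNA did (82.1 to 98.7 and 92.4 to 107 CPM), and their part in the differences by LNA below was not tested. One of these 5 markers, the scavenger receptor Stab2, was called in total RNA, with a log2 difference by LNA of 1.06 ± 0.15 (edgeR FDR = 0.0497), and gave 1.01 ± 0.21 in polysome RNA (FDR = 0.0857).

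Atf4 protein binds DNA with partners of the C/EBP family at a composite element. Its core, TGATGNAAN on either strand, was searched in the 250 bases before the start of each gene in RefSeq sequence of GRCm38.p6. It was present in 2 of the 9 members with a promoter entry, Chac1 and Asns, and in 3.89% of all 27025 genes (3.44% of 32851 promoters). Ppp1r15b had no entry. The windows of Chac1 and Asns are shown because they hold the matches found, and capitals mark the match. The first lies at chr2:119351033-119351071, upstream of Chac1, a gene on the plus strand, with the element on the opposite strand 194 to 186 bases before the start.
Chac1: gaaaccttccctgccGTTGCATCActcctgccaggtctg
The second lies at chr6:7693210-7693247, upstream of Asns, a gene on the minus strand, and is written in the direction of transcription with the element 23 to 15 bases before the start.
Asns: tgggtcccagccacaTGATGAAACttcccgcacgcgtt
A match is a description of the sequence, and whether a factor bound there was not measured.

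Levels in total RNA are given in CPM, scaled by the trimmed mean of M values (TMM), and they are not compared between genes because transcript lengths were not used. Atf4, the central transcription factor of the response (chromosome 15, 80255184 to 80257545, GRCm38.p6), was at 96.7, 92.8, 106, 73.8 and 105 CPM in GFP LNA mice 1, 2, 3, 8 and 9. With SNORA73 LNA it was at 89.7, 76.1, 90.2, 88.9 and 85 CPM in mice 4, 6, 10, 11 and 12. Over all 10 livers the highest value was 1.44 times the lowest, and the ranges of the groups overlapped because mouse 8 was the lowest of all.

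Asns (chromosome 6, 7675165 to 7693209), asparagine synthetase, was the member whose total RNA differed most between livers. It was at 6.71, 1.04, 2.76, 6.66 and 4.39 CPM in GFP LNA mice 1, 2, 3, 8 and 9 and at 1.85, 1.82, 9.61, 7.78 and 2.95 CPM in SNORA73 LNA mice 4, 6, 10, 11 and 12. High and low livers occurred in both groups, and the highest value was 9.22 times the lowest. Chac1 (chromosome 2, 119351242 to 119354326), which degrades glutathione, spanned a factor of 5.23, from 0.576 to 3.01 CPM. Trib3 (chromosome 2, 152337425 to 152344060), a pseudokinase that restrains Atf4 and Akt signalling, spanned a factor of 4.64, from 2.02 to 9.38 CPM. The other 7 members spanned factors of 1.24 (Ppp1r15b) to 2.28 (Ddit3). The wide spread thus lay in Asns, Chac1 and Trib3. Ddit3 and Ppp1r15a, which are also set against Atf4 below, spanned factors of 2.28 and 1.52. Chac1 held as few as 16 counts in a library of total RNA.

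**Figure D1:**
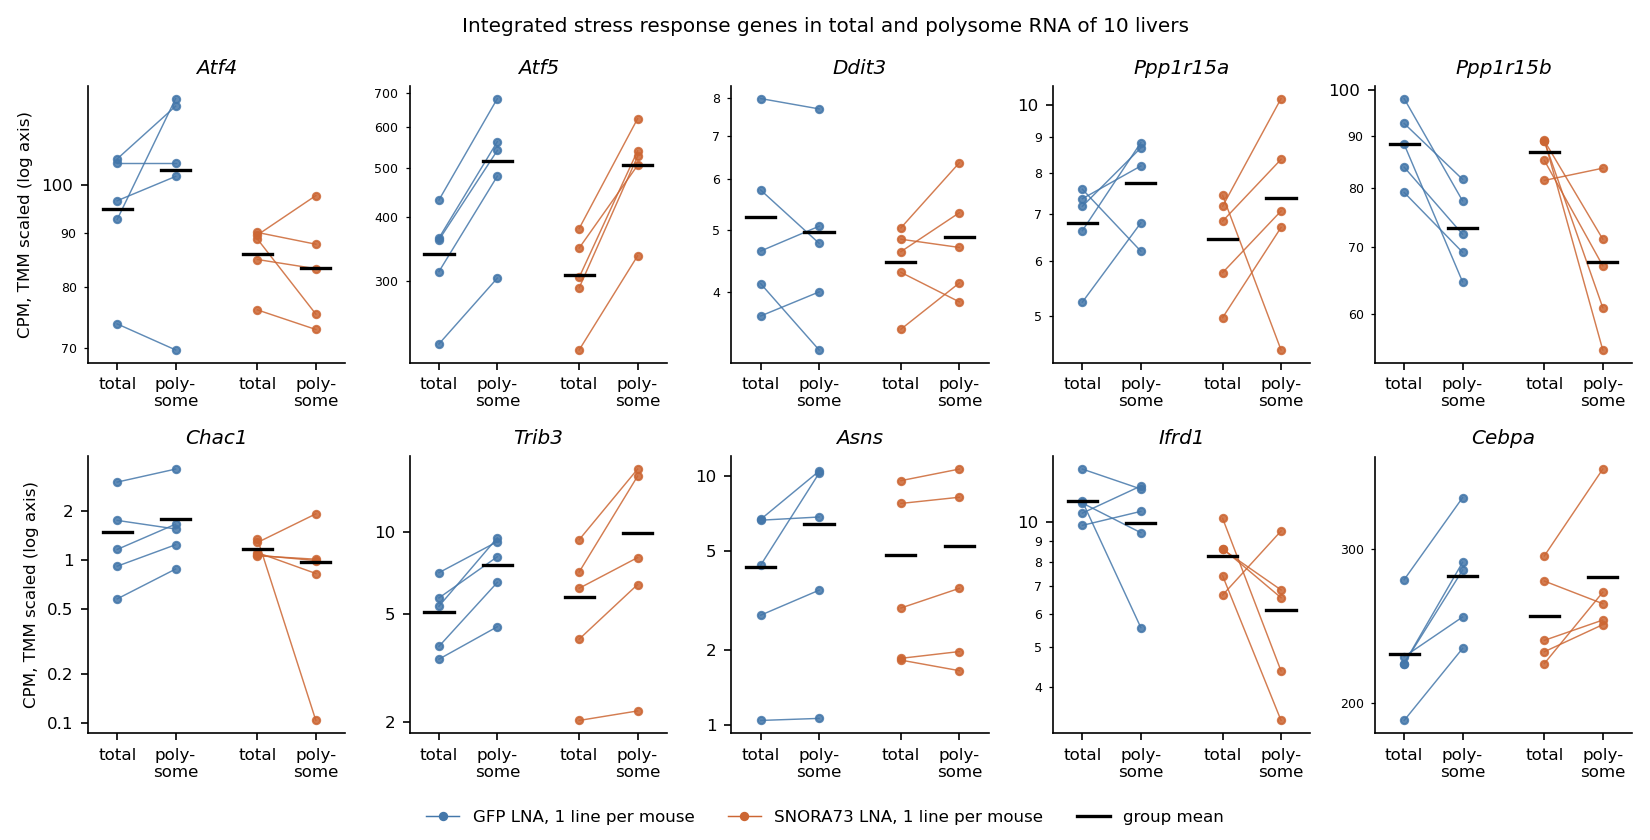
CPM of the 10 members on log axes in total and polysome RNA, with 1 line for each of the 5 GFP LNA mice (blue) and 5 SNORA73 LNA mice (orange) and black bars for group means. All 10 lines rise for Atf5 and Trib3, 9 of 10 fall for Ppp1r15b, and the lines of Asns are spread over a factor of 9.22 in total RNA.

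The first comparison asked which members were loaded on polysomes more or less than the typical mRNA. Atf5, a transcription factor of the Atf4 family that is abundant in liver, was higher in polysome than in total RNA in each of 10 mice, and Ppp1r15b, the constitutive eIF2 phosphatase subunit, was lower in 9 of 10. Trib3 was higher in 10 of 10 mice, while Asns and Cebpa were each higher in 9 of 10. Atf4 was higher in polysome RNA in 5 mice and lower in 5.

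Atf5 (chromosome 7, 44812256 to 44816658) was at 432, 364, 313, 361 and 226 CPM in total RNA of GFP LNA mice 1, 2, 3, 8 and 9 and at 682, 562, 481, 540 and 304 CPM in their polysome RNA. In SNORA73 LNA mice 4, 6, 10, 11 and 12 it was at 291, 305, 348, 380 and 220 CPM in total RNA and at 526, 539, 505, 623 and 336 CPM in polysome RNA. Mouse 9 and mouse 12 were the lowest of their groups in both RNAs, and the total and polysome ranges overlapped through them. The ratio of polysome to total RNA within a mouse was nevertheless narrow, from 1.34 to 1.81. The log2 difference was 0.61 ± 0.21 (SE, n = 5 mice) with GFP LNA (edgeR FDR = 0.0294) and 0.73 ± 0.19 with SNORA73 LNA (FDR = 0.0122). With mouse as a replicate block the SE was 0.062 and 0.092 (FDR = 4.92e-06 and 0.000187). Without the block the call was lost when mouse 2, 3 or 8 was left out with GFP LNA (FDR = 0.0813, 0.0857 and 0.0816) and when mouse 4 was left out with SNORA73 LNA (FDR = 0.0627). The annotation places Il4i1b and Nup62 over parts of the Atf5 locus, and reads that these genes share with it could not be told apart.

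Ppp1r15b (chromosome 1, 133131166 to 133139800) was at 83.9, 98.1, 79.2, 88.4 and 92.7 CPM in total RNA of GFP LNA mice 1, 2, 3, 8 and 9 and at 72, 77.7, 69.1, 64.6 and 81.6 CPM in polysome RNA. In SNORA73 LNA mice 4, 6, 10, 11 and 12 it was at 85.2, 81.4, 89.1, 89.3 and 89 CPM in total RNA and at 67, 83.7, 71.2, 55.3 and 60.9 CPM in polysome RNA. Mouse 6 was the only mouse with the higher value in polysome RNA. The log2 difference was -0.27 ± 0.091 with GFP LNA (edgeR FDR = 0.026) and -0.34 ± 0.12 with SNORA73 LNA (FDR = 0.048). Both calls held with the block (FDR = 0.00237 and 0.0264) and ended with scaling by library totals (FDR = 0.0691 and 0.135). They also ended without mouse 1, 2 or 8 with GFP LNA (FDR = 0.0585, 0.0522 and 0.0934) and without mouse 4, 10, 11 or 12 with SNORA73 LNA (FDR = 0.127, 0.0875, 0.124 and 0.15). Its stress-induced counterpart Ppp1r15a (Gadd34; chromosome 7, 45522917 to 45526268, where Tulp2 overlaps) was higher in polysome RNA in 8 of 10 mice, with log2 differences of 0.20 ± 0.14 and 0.21 ± 0.20 that did not pass the threshold (FDR = 0.276 and 0.45).

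Trib3 was at 3.4, 7.09, 3.79, 5.33 and 5.72 CPM in total RNA of GFP LNA mice 1, 2, 3, 8 and 9 and at 4.48, 9.23, 6.53, 9.54 and 8.12 CPM in their polysome RNA. In SNORA73 LNA mice 4, 6, 10, 11 and 12 it was at 4.03, 6.21, 2.02, 7.13 and 9.38 CPM in total RNA and at 6.41, 8.06, 2.19, 16.1 and 17.1 CPM in polysome RNA. The spread between livers was larger than the step within them, so the groups of libraries overlapped. The log2 differences were 0.59 ± 0.25 in GFP LNA mice and 0.81 ± 0.49 in SNORA73 LNA mice (edgeR FDR = 0.0712 and 0.22), and with mouse as a block it was 0.59 ± 0.13 and 0.71 ± 0.16 (FDR = 0.00163 and 0.00551). Without the block, Trib3 passed the threshold with GFP LNA when mouse 1 was left out (FDR = 0.0406) or with DESeq2 (FDR = 0.0442), and with SNORA73 LNA under none of the alternatives.

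Polysome RNA of Asns was at 10.5, 1.06, 3.48, 6.86 and 10.3 CPM in GFP LNA mice 1, 2, 3, 8 and 9 and at 1.97, 1.65, 10.7, 8.24 and 3.54 CPM in SNORA73 LNA mice 4, 6, 10, 11 and 12. The ratio to total RNA was 2.34 in mouse 9 and 1.57 in mouse 1, and between 0.907 and 1.26 in the other 8. The log2 difference was 0.58 ± 0.57 with GFP LNA (edgeR FDR = 0.419), and 0.50 ± 0.17 with the block (FDR = 0.022). With SNORA73 LNA it was 0.15 ± 0.59 (FDR = 0.871), and 0.12 ± 0.14 with the block (FDR = 0.525). Cebpa (chromosome 7, 35119293 to 35121928), a master regulator of hepatocyte genes whose uORF sets the ratio of its protein isoforms, was at 191 to 277 CPM (median 222) in total RNA and 231 to 344 CPM (median 284) in polysome RNA of GFP LNA mice. Its log2 difference was 0.30 ± 0.12 (FDR = 0.0621), and 0.30 ± 0.061 with the block (FDR = 0.000885). Leaving out mouse 9 or scaling by library totals also brought it past the threshold (FDR = 0.0325 and 0.0314). With SNORA73 LNA it was 0.17 ± 0.14 (FDR = 0.399).

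The remaining members did not pass the threshold in either fit. Atf4 polysome RNA was at 102, 121, 119, 69.7 and 105 CPM in GFP LNA mice 1, 2, 3, 8 and 9 and at 97.8, 72.9, 87.9, 75.4 and 83.3 CPM in SNORA73 LNA mice 4, 6, 10, 11 and 12. Mouse 8 was again the lowest of the control livers. The log2 difference from total RNA was 0.13 (95% interval -0.19 to 0.45) with GFP LNA and -0.02 (-0.29 to 0.24) with SNORA73 LNA (edgeR FDR = 0.485 and 0.904). Ddit3 (CHOP), a transcription factor that promotes cell death under lasting stress, was at 3.25 to 7.99 CPM in the 20 libraries, with log2 differences of -0.08 and 0.15. Its locus (chromosome 10, 127290793 to 127296291) overlaps Mars1 and Mbd6. Chac1 in polysome RNA of mouse 11 held 2 counts, under the floor of 3 counts, against 0.825 to 3.62 CPM in the other 9 polysome libraries. Ifrd1 (chromosome 12, 40203129 to 40223189, where Mir1938 overlaps), a transcriptional co-regulator, was lower in polysome RNA in 7 of 10 mice, with log2 differences of -0.16 ± 0.19 and -0.42 ± 0.24 (FDR = 0.497 and 0.206). Without mouse 6 the value with SNORA73 LNA was -0.73 (FDR = 0.0357).

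**Figure D2:**
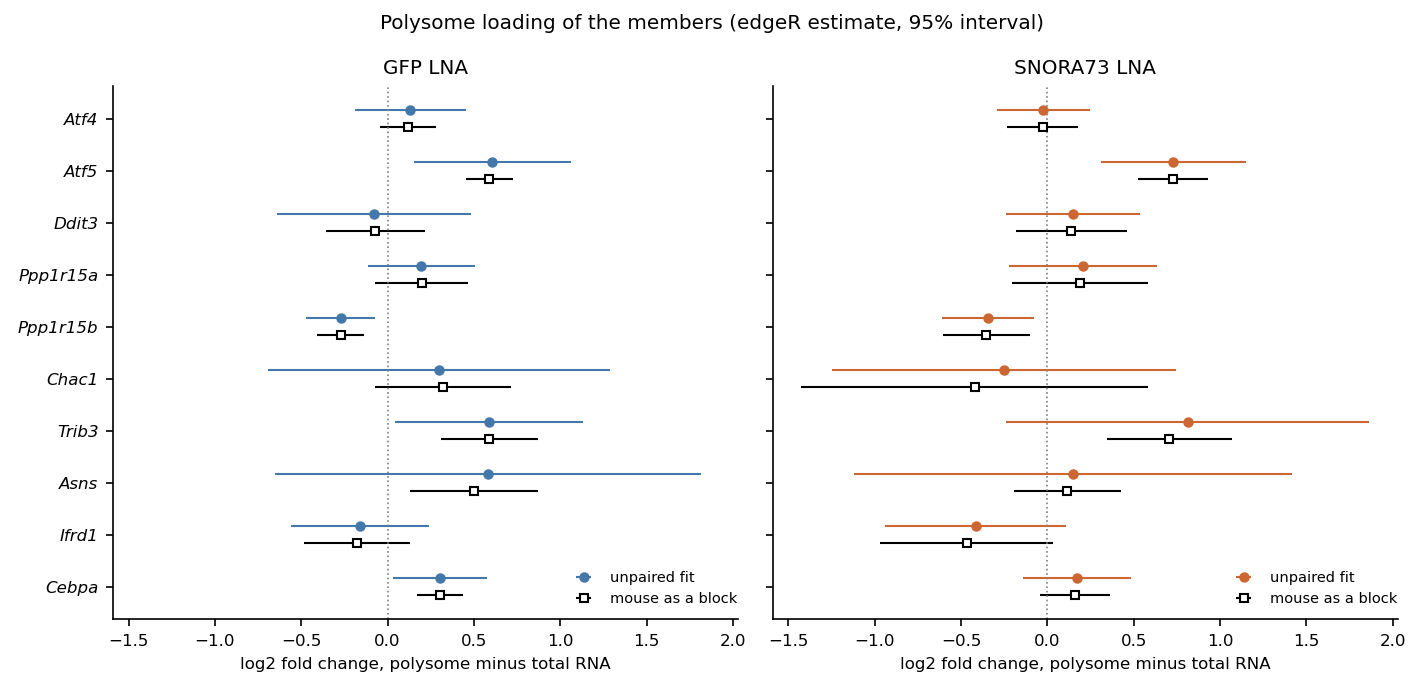
Log2 fold change of polysome minus total RNA for each member with its 95% interval, for GFP LNA (left) and SNORA73 LNA (right), from the unpaired fit (filled circles) and with mouse as a replicate block (open squares). Intervals of Atf5 lie above 0 and those of Ppp1r15b below 0 in all 4 fits, and the block narrows the interval of Trib3 to 0.31 to 0.87 with GFP LNA and to 0.34 to 1.07 with SNORA73 LNA.

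Loading differed from the average for a large part of the transcriptome, which sets the scale for these counts. With GFP LNA, 24.7% of the 13283 genes tested were higher and 24% lower in polysome RNA, against 1 of 10 members higher (Atf5) and 1 lower (Ppp1r15b). With the block, 32.3% of genes were higher and 30.7% lower, against 4 members higher (Atf5, Trib3, Asns and Cebpa) and 1 lower (Ppp1r15b). With SNORA73 LNA, 17.2% of 13063 genes were higher and 15.8% lower, against 1 member each, and with the block 24% and 22.3%, against 2 members higher and 1 lower. In none of these 8 counts did the members exceed the background share by more than 1 gene of 10. The median log2 difference of the members was 0.25 in GFP LNA mice and 0.15 in SNORA73 LNA mice, beside 0.025 and 0.027 over all genes. Atf5 stood at percentile 84.9 and 89.1 of all genes by log2 difference, Trib3 at 84 and 91.3, and Ppp1r15b at 33.7 and 28. Summed stellate cell markers (5 of 5 with counts) were 236 to 304 CPM in total and 149 to 218 CPM in polysome RNA of GFP LNA mice, which did not overlap, and 199 to 294 and 157 to 205 CPM in SNORA73 LNA mice, which did. The summed endothelial ranges given above overlapped between total and polysome RNA with either LNA. By gene, 3 of the 5 endothelial markers were called lower in polysome RNA and 0 higher with GFP LNA (3 and 1 with the block). With SNORA73 LNA 1 was lower and 0 higher (3 and 0 with the block). Their median log2 differences without the block were -0.34 and -0.37. Neutrophil markers (4 of 4 with counts) summed to 2.66 to 7.2 CPM in total and 5.05 to 13.2 CPM in polysome RNA of GFP LNA mice, and to 1.7 to 12.9 and 2.83 to 29.9 CPM with SNORA73 LNA. The part of cell types other than hepatocytes in these differences was not tested.

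The second comparison asked whether SNORA73 LNA changed the members. By edgeR 0 members passed the threshold in total RNA, where 0.0303% of the 13195 genes tested were called, or in polysome RNA, where 0.0153% of 13060 were called. At an unadjusted p under 0.05, 1141 and 1755 genes were counted, and Ifrd1 was the only member among them in either RNA. The count of members called was also 0 with limma-voom and with DESeq2. In these bulk samples fewer cells of a type and less RNA per cell cannot be told apart.

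Ifrd1 was at 11.1, 10.5, 9.81, 11.2 and 13.4 CPM in total RNA of GFP LNA mice 1, 2, 3, 8 and 9 and at 8.59, 6.67, 8.63, 10.2 and 7.42 CPM in SNORA73 LNA mice 4, 6, 10, 11 and 12. The groups overlapped only through mouse 3 and mouse 11. In polysome RNA it was at 9.42, 12.2, 10.6, 5.57 and 12 CPM with GFP LNA and at 6.86, 9.51, 6.57, 4.38 and 3.33 CPM with SNORA73 LNA. The log2 difference of SNORA73 LNA minus GFP LNA was -0.40 ± 0.14 in total RNA (edgeR FDR = 0.423) and -0.68 ± 0.28 in polysome RNA (FDR = 0.314). Over the alternatives it ranged from -0.549 to -0.327 and from -0.877 to -0.52, with the lowest FDR at 0.154 and 0.118.

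Atf4 differed by -0.11 (95% interval -0.36 to 0.14) in total RNA and by -0.28 (-0.63 to 0.06) in polysome RNA (edgeR FDR = 0.836 and 0.463). For Atf5 the intervals were -0.49 to 0.29 and -0.46 to 0.46, and for Ppp1r15b -0.19 to 0.19 and -0.36 to 0.18. The interval for Asns was -1.01 to 1.41 in total RNA and -1.53 to 1.01 in polysome RNA. Both reached past a change of 2-fold in either direction, so a change of that size was not excluded with these mice. Trib3 and Chac1 differed by 0.21 ± 0.33 and -0.32 ± 0.37 in total RNA and by 0.43 ± 0.44 and -0.87 ± 0.53 in polysome RNA. The Chac1 value in polysome RNA includes mouse 11, at 2 counts. The median over the 10 members was -0.075 in total and -0.071 in polysome RNA, beside 0.007 and -0.011 over all genes. When libraries were scaled by their totals instead of TMM, the median of all genes moved to -0.138 and -0.165, and Atf5, Ddit3 and Cebpa turned to negative values in polysome RNA.

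The study used 4 mice per group. A fit that left out mouse 9 of the controls and mouse 10 of the knockdown group, a choice taken from earlier results of these data, called 97 genes in total and 31 in polysome RNA and again no member. The lowest FDR of a member there was 0.275 for Cebpa in total RNA (log2 difference 0.29 ± 0.10) and 0.277 for Chac1 in polysome RNA (-1.45 ± 0.55).

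**Figure D3:**
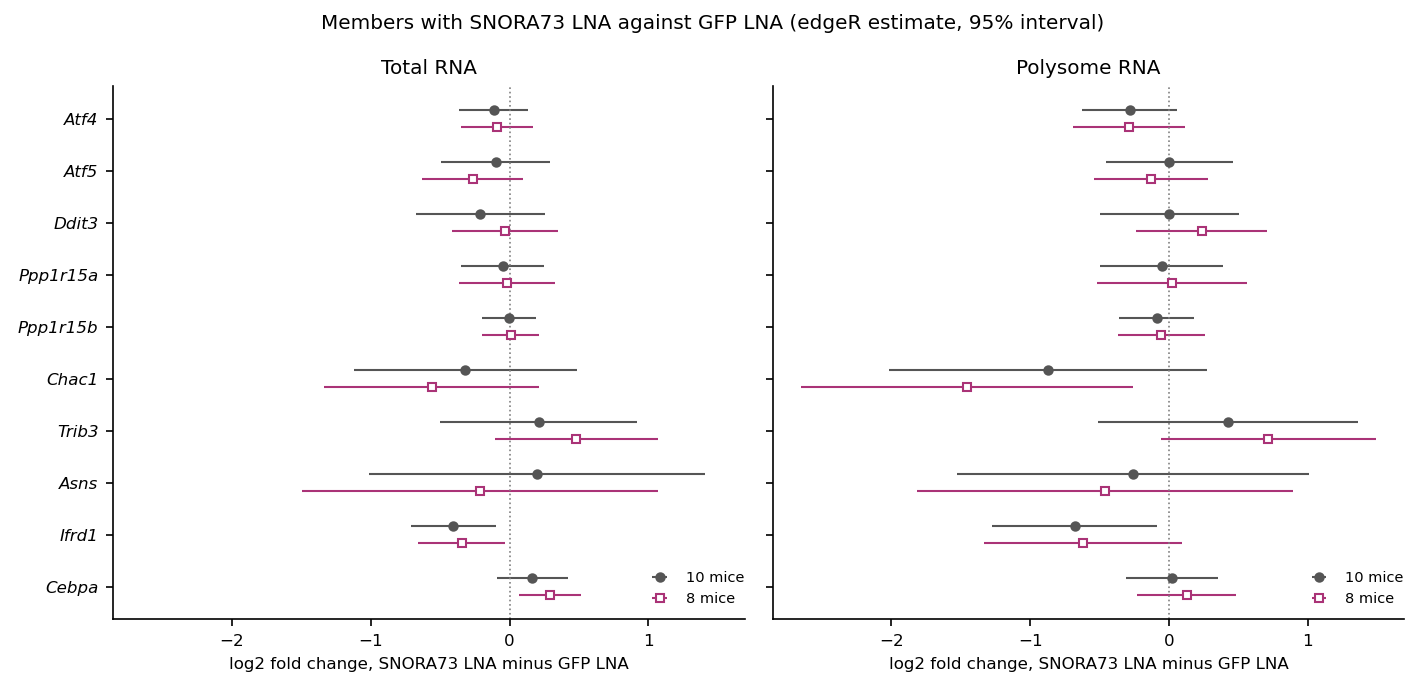
Log2 fold change of SNORA73 LNA minus GFP LNA for each member with its 95% interval in total RNA (left) and polysome RNA (right), over all 10 mice (filled circles) and over 8 mice (open squares). Intervals over 10 mice include 0 for every member but Ifrd1, and those of Asns, Chac1 and Trib3 are the widest.

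The third comparison tested whether SNORA73 LNA changed polysome loading, by a term for RNA by LNA in a single model of the 20 libraries. No member passed the threshold (edgeR FDR = 1 for each), and 0.00725% of the 13795 genes tested were called. The unadjusted p was under 0.05 for 401 genes, none of them a member. With mouse as a block the lowest FDR of a member was 0.677 for Asns, whose loading differed by -0.40 (95% interval -0.88 to 0.09). The blocked interval was -0.40 to 0.09 for Atf4, -0.09 to 0.34 for Atf5 and -0.37 to 0.18 for Ppp1r15b. Asns and Cebpa passed the threshold for loading with the block in GFP LNA mice and not in SNORA73 LNA mice, but the difference between the groups did not pass it (blocked FDR = 0.677 and 0.72).

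Livers were next compared with one another to see whether the level of a member in total RNA carried over to polysomes, a comparison added after the values had been seen. Total and polysome log2 CPM over 10 mice correlated with r = 0.953 for Trib3, 0.95 for Asns and 0.941 for Atf5 (rho = 0.903, 0.939 and 0.891; permutation p adjusted over the 10 members = 0.0001, 0.0004 and 0.001). Without the 2 mice farthest from the median, r was 0.852, 0.917 and 0.803. For Atf4 r was 0.849 (rho = 0.903, adjusted permutation p = 0.00485, 0.701 without the 2 mice) and for Ddit3 0.796 (rho = 0.745, adjusted permutation p = 0.0124, 0.607). Over 8 mice, without mouse 9 and mouse 10, r was 0.587 for Ddit3 and no longer passed the threshold (adjusted permutation p = 0.206), while the other 4 still did. Cebpa gave r = 0.741 but rho = 0.442, and r = 0.258 without the 2 mice, so its relation rested on them. For Chac1, Ifrd1, Ppp1r15a and Ppp1r15b r was between 0.0211 and 0.386, and none passed the threshold. The Chac1 value includes polysome RNA of mouse 11, which held 2 counts, under the floor. It therefore cannot tell whether the level of Chac1 carried over. Total RNA of Ppp1r15b spanned a factor of only 1.24, which left little difference between livers to carry over.

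**Figure D4:**
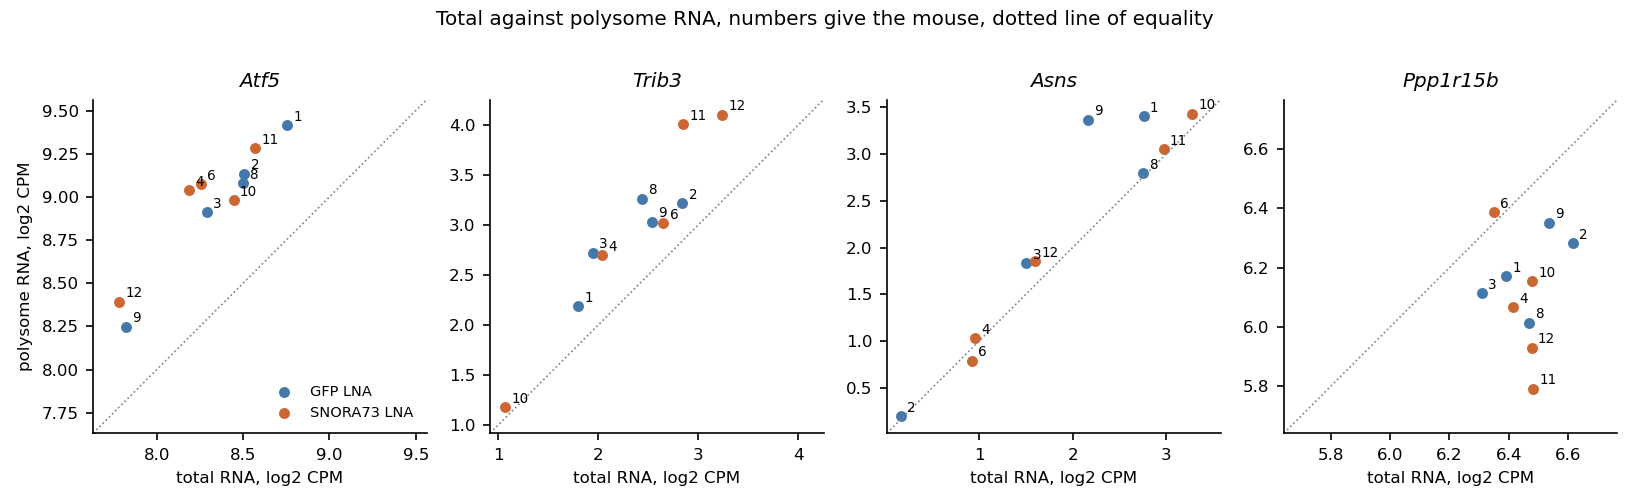
Log2 CPM in polysome RNA against total RNA for Atf5, Trib3, Asns and Ppp1r15b, with 1 numbered point per mouse and the dotted line of equality. All points of Atf5 and Trib3 lie above the line, Asns follows it over a range of 9.22-fold, and 9 of 10 points of Ppp1r15b lie below it without a common trend (r = 0.0211).

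Atf4 mRNA was set against 5 other members across the livers, and over 10 mice none of the 5 relations passed the threshold. Over 10 total RNA libraries its log2 CPM gave r = -0.00987 with Asns, -0.28 with Trib3, -0.0413 with Chac1, -0.181 with Ppp1r15a and 0.519 with Ddit3, with rho of -0.00606, -0.43, -0.139, -0.37 and 0.479. No permutation p adjusted over these 5 relations was under 0.613 for r or under 0.492 for rho. Without the 2 mice farthest in Atf4 the values were -0.0237, -0.258, 0.186, 0.288 and 0.278, in the same order. Leaving out mouse 3 alone raised r with Ddit3 to 0.868 (adjusted permutation p = 0.0106), so this relation passed the threshold only in the absence of that liver. This was the highest value with 1 mouse left out, and the lowest was 0.299. The highest correlations with Atf4 in total RNA among 13185 genes compared were those of Ptpn23 (r = 0.901), Gm10134 (0.891), Sash3 (0.852), Map3k14 (0.835) and Zfp990 (0.82) over 10 libraries. All of these genes had a mean of at most 3.83 CPM. Picked as the highest of 13185 values over only 10 libraries, correlations of this size can arise by chance. They were not tested against chance, so no relation to Atf4 is drawn from them.

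Other genes of the pathway were read from lists of symbols. The list of the eIF2 machinery held its kinases, the 3 subunits of eIF2 and its exchange factor eIF2B. It also held Eif2a, Impact, Gcn1 and Nck1, and the 16 genes together split in both directions. With GFP LNA 4 of 16 were higher and 5 lower in polysome RNA (7 and 6 with the block), and with SNORA73 LNA 5 were higher and 4 lower (6 and 4). The shares over all genes were 24.7% higher and 24% lower with GFP LNA (32.3% and 30.7% with the block). With SNORA73 LNA they were 17.2% and 15.8% (24% and 22.3%). Without the block, the counts with GFP LNA lay near these shares. Those with SNORA73 LNA, 5 and 4 of 16, lay above them, and this was not tested. Eif2b4, a subunit of eIF2B, gave a log2 difference of 1.20 ± 0.16 with GFP LNA (edgeR FDR = 5.7e-05) and 1.25 ± 0.24 with SNORA73 LNA (FDR = 0.0023). Eif2s2, the beta subunit of eIF2, gave 0.71 ± 0.091 and 0.86 ± 0.17 (FDR = 5.24e-05 and 0.00239). Impact, which restrains the amino acid sensor Gcn2, gave -0.85 ± 0.21 with GFP LNA (FDR = 0.00555) and -0.45 ± 0.25 with SNORA73 LNA (FDR = 0.182). Eif2ak3 (PERK), the kinase of the endoplasmic reticulum, gave -0.45 ± 0.28 (FDR = 0.207, or 0.018 with the block) and -0.82 ± 0.21 (FDR = 0.00928). The difference between the LNA groups passed the threshold for neither gene (FDR = 1 for both). Nck1, an adaptor, was lower in both at -0.71 and -0.70.

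Among the Atf4 targets, tRNA synthetases moved in 1 direction where they were called. With GFP LNA 6 of 12 were higher in polysome RNA and 0 lower (9 and 0 with the block), and with SNORA73 LNA 4 were higher and 0 lower (6 and 0), with medians of 0.38 and 0.24. The background shares of higher genes were 24.7% (32.3% with the block) and 17.2% (24%), and those of lower genes 24% (30.7%) and 15.8% (22.3%). Sars gave 0.81 ± 0.11 with GFP LNA (edgeR FDR = 8.72e-05) and 0.84 ± 0.19 with SNORA73 LNA (FDR = 0.00563), and Cars gave 0.77 ± 0.20 and 0.98 ± 0.20. Mars and Eprs were higher by 0.60 and 0.58 with GFP LNA and by 0.67 and 0.77 with SNORA73 LNA. Of 13 amino acid and one-carbon genes tested from a list of 17, 3 were higher and 1 lower with GFP LNA (4 and 3 with the block), and 0 higher and 2 lower with SNORA73 LNA (0 and 3). The largest of these differences was that of the amino acid transporter Slc38a2, at -1.07 ± 0.12 and -0.86 ± 0.19 (FDR = 1.47e-05 and 0.0049). The 3 higher with GFP LNA were Pck2, the mitochondrial PEP carboxykinase, at 0.56 ± 0.19, the serine synthesis enzyme Psph at 0.45 ± 0.17 and the serine hydroxymethyltransferase Shmt2 at 0.22 ± 0.082 (FDR = 0.0299, 0.0407 and 0.0444). With SNORA73 LNA these gave 0.19, 0.087 and 0.12 (FDR = 0.557, 0.793 and 0.633). The alanine transaminase Gpt2 was lower with SNORA73 LNA at -0.48 ± 0.16 (FDR = 0.036) and gave -0.23 ± 0.15 with GFP LNA (FDR = 0.207).

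Stress and secreted factors among the Atf4 targets went both ways, with 4 of 15 tested higher and 3 lower with GFP LNA (6 and 4 with the block) and 2 of 14 higher and 2 lower with SNORA73 LNA (2 and 4). For the stress, uORF and unfolded protein response lists, the shares over all genes were 24.7% higher and 24% lower with GFP LNA. With the block they were 32.3% and 30.7%. In SNORA73 LNA mice they were 17.2% and 15.8% (24% and 22.3% with the block). Cebpb, a C/EBP factor of the acute phase, gave 0.98 ± 0.16 and 0.82 ± 0.21, and Eif4ebp1, the repressor of the cap-binding protein, gave 0.88 ± 0.14 and 0.58 ± 0.17. Jdp2, a bZIP repressor, gave 0.88 ± 0.27 (edgeR FDR = 0.0183) and 0.72 ± 0.41 (FDR = 0.2). Its mean in total RNA was 0.807 CPM, near the filter of 0.5 CPM. Xpot, the exporter of tRNA, was lower at -0.40 ± 0.099 and -0.45 ± 0.14 (FDR = 0.00494 and 0.0243). Tnfrsf10b, a death receptor, was lower with GFP LNA at -0.94 ± 0.36 (FDR = 0.0487). With SNORA73 LNA it was also called (FDR = 0.0106), on 0 counts in 3 of 5 polysome libraries and 3.445 and 5.598 counts in the others, against 7.057 to 26.84 counts in total RNA, so no fold is given. Of 12 other mRNAs with described uORFs, a list that shares Cebpb and Eprs with those above, 3 were higher and 4 lower with GFP LNA (3 and 4 with the block), and 3 higher and 1 lower with SNORA73 LNA (4 and 2). Azin1, which spares ornithine decarboxylase from degradation, was lower at -0.75 ± 0.13 and -0.74 ± 0.14 (edgeR FDR = 0.000418 and 0.0017). The nuclear receptor Ppard gave 0.95 ± 0.35 (FDR = 0.0417) and 1.03 ± 0.49 (FDR = 0.126), and Slc35a4 gave 0.28 ± 0.16 (FDR = 0.167) and 0.43 ± 0.14 (FDR = 0.0347). Of 10 genes of other branches of the unfolded protein response, 0 were higher and 2 lower with GFP LNA (3 and 4 with the block), and 1 higher and 2 lower with SNORA73 LNA (3 and 3). These included the chaperone partner Dnajb9 at -1.46 ± 0.18 and -1.38 ± 0.43 and the sensor Ern1 (IRE1) at -0.79 ± 0.13 and -0.68 ± 0.19. The chaperone Hsp90b1 was higher with SNORA73 LNA at 0.83 ± 0.28 (FDR = 0.0367) and gave 0.37 ± 0.20 with GFP LNA (FDR = 0.135). Medians over the stress, uORF and unfolded protein response lists lay between -0.13 and 0.026. In total RNA, in polysome RNA and in the interaction, 0 genes of any of the 6 lists were called for SNORA73 LNA by edgeR, over 10 or 8 mice. Over 10 mice the unadjusted p was under 0.05 for 3 of 73, 10 of 71 and 1 of 74 list genes tested, in that order. Over all genes tested it was under 0.05 for 1141 of 13195, 1755 of 13060 and 401 of 13795.

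**Figure D5:**
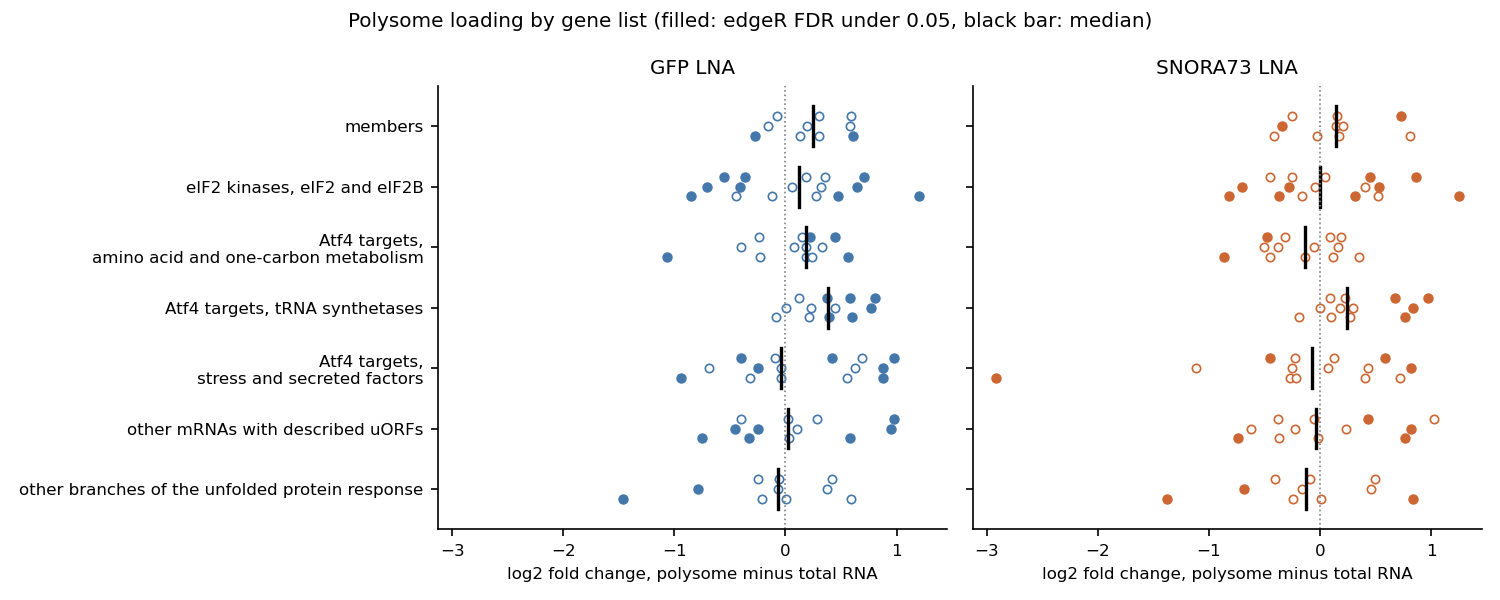
Log2 fold change of polysome minus total RNA for every tested gene of the member set and 6 pathway lists, with GFP LNA (left) and SNORA73 LNA (right), where filled points passed an edgeR FDR of 0.05 in the unpaired fit and black bars are medians. The tRNA synthetases have the highest median in both panels (0.38 and 0.24), and the other lists spread to both sides of 0.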

How the data were processed

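Total and polysome RNA of 10 livers were measured by RNA-seq. The authors deposited estimated counts for each gene, without normalization. Per the study's methods and the labels, they trimmed with fastp, took out rRNA reads (Bowtie2, SAMtools), ran kallisto (GRCm38) and summed its transcript estimates to genes with tximport. The strand setting of kallisto is not given in the sources used here. Estimated counts were rounded, and 51903 of 53028 identifiers matched a symbol.

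The filter asked for more than 0.5 CPM in 4 or more libraries of a fit. After TMM scaling, edgeR 4.0.16 (R 4.3.3) gave quasi-likelihood tests, with Benjamini-Hochberg FDR under 0.05 over all genes tested as the call in either direction. Values ± are SE of the fit. CPM printed per library used TMM factors over all 20 libraries, and log2 CPM a prior count of 2. Correlations were tested by two-sided permutation with 100000 resamples, and the smallest p these can give is 1e-05. The floor was 3 counts and covers no preparation error. Intervals hold variation between mice and between library preparations together and do not separate them. Fits were tested on simulated data first.

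The mouse number, given in the labels, joins the total and polysome library of an animal. Deviations from group means correlated within mice at 0.127 to 0.58 for the 10 mice, and 9 of 10 libraries correlated best with their own mouse. The highest correlation between libraries was 0.987, so none was taken as a repeat deposit.

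The members and lists were chosen with earlier results of these data known. Named from each list are the genes past the threshold with the largest change, at most 4 per list and comparison. Alternatives were limma-voom (limma 3.58.1), DESeq2 1.42.0, DESeq2 size factors, library totals, no filter beyond 1 count, a fold threshold of 0.5 on the log2 scale, a single fit of 20 libraries, the block, each mouse left out and 8 mice. Levels per length were not computed, since exonic lengths were not used here.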

Additional observations from a re-analysis of the deposited data

Results flagged for a closer look

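Cebpa in polysome RNA of SNORA73 LNA mouse 12 was at 371 CPM, while the other 4 mice of the group lay between 246 and 268 CPM. Its gap to the next value was 0.793 of the range of the group, above Dixon's 95% critical value of 0.71 for 5 samples. This was 1 of 40 groups of 5 libraries examined (10 members in 4 groups), and chance flags about 1 in 20. The same mouse also had the highest Cebpa value in total RNA of all 10 livers, at 295 CPM.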

How the results depend on the processing

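Of 800 recomputed log2 differences of members, 723 kept direction and call, 10 gained and 17 lost the call, and 50 changed sign; no member changed sign where it was called. Members called in polysome minus total RNA (2 in each group) became 5 with GFP LNA with the mouse as a replicate block (3 with SNORA73 LNA), 1 with GFP LNA and 1 with SNORA73 LNA at an absolute log2 fold change of at least 0.5, and 1 with SNORA73 LNA with library totals, without the filter or over 8 mice. Leaving out 1 mouse gave 0 to 3 in each group. The replicate block changed no call of a member in the interaction, where 0 were called, and no other call of a member was changed by it beyond those above.

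Genes called by LNA in total RNA (4) became 75 with DESeq2, 2 with library totals, 13 without the filter, 97 over 8 mice and 1 to 59 with 1 mouse left out (59 without mouse 9). In polysome RNA (2) they became 281, 0, 72, 31 and 0 to 17 (17 without mouse 9), and 317 in a single fit. In the interaction (1) they became 7 with DESeq2 and 0 with limma-voom or over 8 mice. Genes called in polysome minus total RNA with SNORA73 LNA (4308) were 2736 to 4094 with 1 mouse left out, lowest without mouse 12. Over all alternatives they reached 6038. The causes were not tested.

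Changes of sign, all without a call, were as follows. In total RNA by LNA, Ppp1r15b gave 0.00247 with limma-voom, 0.000621 in a single fit and 0.00948 over 8 mice, and Asns gave -0.213 over 8 mice. In polysome RNA, library totals gave -0.158 for Atf5, -0.14 for Ddit3 and -0.139 for Cebpa, no filter gave -0.0137 for Atf5 and -0.0157 for Ddit3, and 8 mice gave -0.128 for Atf5 and 0.0235 for Ppp1r15a. Loading of Atf4 with SNORA73 LNA was 0.00868 with library totals. In the interaction, Ppp1r15a was -0.0632 with limma-voom, -0.00424 with library totals and -0.0185 with the replicate block, and Trib3 was -0.0411 with limma-voom. The correlations of Atf4 became 0.0112 with Asns, 0.0367 with Chac1 and 0.178 with Ppp1r15a by library totals, and 0.322 with Chac1 over 8 mice. Total against polysome RNA of Ppp1r15b was -0.157 over 8 mice.

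With 1 mouse left out, values in total RNA by LNA ranged from -0.0451 to 0.0309 for Ppp1r15b, -0.236 to 0.418 for Asns, -0.525 to 0.122 for Chac1, -0.22 to 0.00849 for Atf5, -0.0252 to 0.419 for Trib3 and -0.137 to 0.0245 for Ppp1r15a. In polysome RNA they ranged from -0.12 to 0.217 for Ddit3, -0.102 to 0.107 for Cebpa, -0.134 to 0.123 for Atf5 and -0.188 to 0.0907 for Ppp1r15a. Loading with SNORA73 LNA ranged from -0.077 to 0.0182 for Atf4 and -0.636 to 0.0962 for Chac1, and the interaction of Ppp1r15a from -0.109 to 0.193. Correlations of Atf4 ranged from -0.211 to 0.201 with Asns, 0.299 to 0.868 with Ddit3, -0.724 to 0.318 with Chac1 and -0.334 to 0.0193 with Ppp1r15a. Depth limits Chac1 most, which held as few as 2 counts in a library.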
